A study of Mus musculus with 8 samples.

Results

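The fibrillar collagens are the chains that assemble into the banded fibrils of connective tissue. They were taken here as the rows of the expression table whose gene symbol is Col1a1, Col1a2, Col2a1, Col3a1, Col5a1, Col5a2, Col5a3, Col11a1, Col24a1 or Col27a1, which gave 10 of 22274 genes. The cells were primary murine cardiac fibroblasts, the stromal cells that lay down the collagen of the heart. By the study's account they were transduced with an adenovirus carrying IRF7 (Ad-IRF7, the libraries labelled OEIRF7) or with an empty vector (Ad-EV, the libraries labelled GFP). There were 4 libraries in each group. IRF7 is an interferon regulatory factor, a transcription factor of the antiviral response. Both groups received TGF-β at 5 ng/ml for 24 h, so no library shows the collagens without this stimulus. No age or strain of the mice is given in the labels of the libraries, and they do not say whether the replicates came from separate cultures or animals. The study's legend speaks of biological replicates, but of fewer than the libraries per group used here, so the p-values measure the spread between these libraries. The comparison asks how the collagen transcripts of TGF-β-treated fibroblasts differ when IRF7 is delivered.

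Each fibrillar collagen molecule is a triple helix of 3 chains. Type I collagen, built from Col1a1 and Col1a2, and type III collagen, built from Col3a1, make up most of the collagen mass of the myocardium and of fibrotic scars. Type V and type XI chains (Col5a1, Col5a2, Col5a3 and Col11a1) are minor components that start fibrils and limit their diameter. Col2a1 is the chain of cartilage collagen, and Col24a1 and Col27a1 belong to a more distant branch of the family. TGF-β is a classical inducer of collagen transcription in fibroblasts.

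Total counts lay between 24888589 and 27095611 in the libraries labelled GFP and between 24454801 and 28658826 in those labelled OEIRF7, and within a group no 2 libraries were as alike as sampling alone would make them (chi-square over degrees of freedom between 2.69 and 8.67 in 12 pairs). Counts of mouse Irf7 were 2861, 3680, 2272 and 3291 in the libraries labelled GFP and 385, 421, 380 and 404 in those labelled OEIRF7, a log2 fold change of -2.96. The groups did not overlap, in the direction opposite to the label. The study's reagent list names the adenovirus for the human gene, and under that account the counts of the mouse gene do not check the label. The text deposited with the libraries names another kind of virus, an adeno-associated virus, which the reagent list gives with mouse Irf7. Under that account the mouse counts should be higher in the libraries labelled OEIRF7, and they were lower. Which virus was used is not settled here, and the direction of every change below rests on the label. The 8 fibroblast markers summed to 7180 to 7400 CPM (counts scaled to equal library size) in the libraries labelled GFP and 6757 to 7104 in those labelled OEIRF7. Most of this was Postn, Vim and Pdgfrb, with 2631, 2548 and 1413 mean CPM in the libraries labelled GFP. Tcf21, Thy1 and Lum stood lowest there, at 58.25, 65.3 and 12.89 mean CPM. Of 8 cardiomyocyte markers, 6 were too low to be tested, and Myh6, the heavy chain of cardiac myosin, had 1 count in all libraries labelled GFP and 0 in the others. Tnnt2, the cardiac troponin T, had 1163 and 817 counts and was called lower (log2 fold change -0.54, edgeR adjusted p = 0.00057), and the list summed to 10.37 to 14.02 CPM in the libraries labelled GFP and 8.43 to 10.3 CPM in those labelled OEIRF7.

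Of the 10 fibrillar collagens, 9 passed the filter on low counts. In edgeR's quasi-likelihood test 6 fell (Col1a1, Col2a1, Col3a1, Col5a1, Col5a2 and Col11a1), 2 rose (Col5a3 and Col27a1), and Col1a2 was not called. A gene is called here when its p-value, adjusted by the method of Benjamini and Hochberg over all 13533 genes tested, is under 0.05. In the same test 29.9% of all tested genes were called lower and 29.0% higher, 58.9% in all, so a call by itself was common. With a log2 fold change past 1 as a further condition, 1 member was lower (Col2a1; 3.89% of all tested genes) and 1 was higher (Col5a3; 4.66%). The groups did not overlap in CPM for 8 members, against 53.8% of all tested genes. The median log2 fold change was -0.51 over the 9 tested members and 0.0015 over all tested genes. In bulk RNA, fewer cells of a type and less RNA per cell cannot be told apart.

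**Figure D1:**
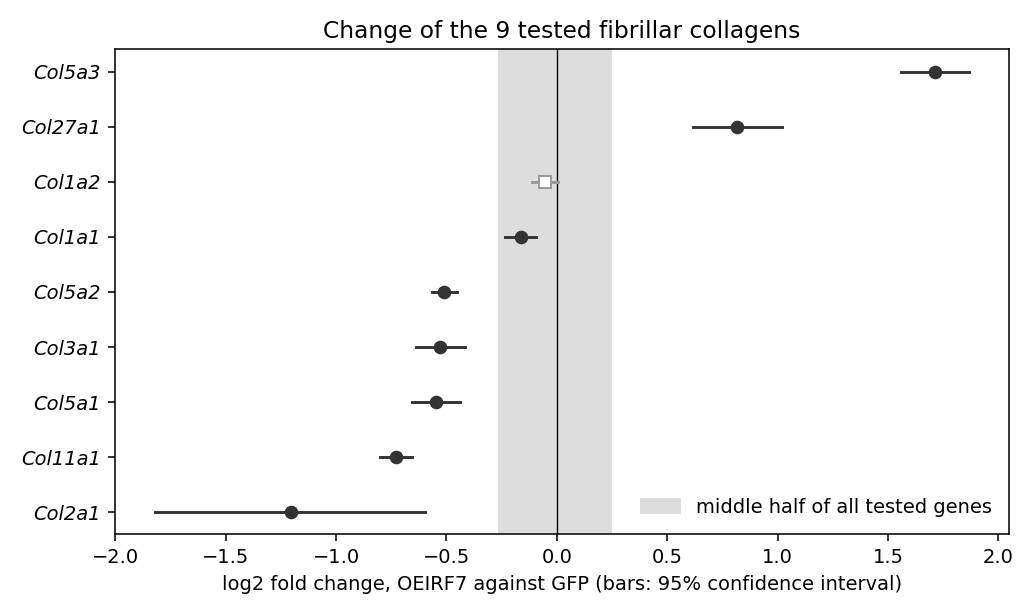
Log2 fold change of each tested fibrillar collagen in the libraries labelled OEIRF7 against GFP (horizontal axis; 4 libraries per group), with bars for the 95% confidence interval and a grey band between the lower and upper quartiles of all 13533 tested genes (-0.26 to 0.24). Filled circles were called and the open square was not; 5 members lie from -1.20 to -0.51, Col1a1 and Col1a2 lie inside the band, and Col5a3 stands at 1.71.

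The smallest fold changes were those of type I collagen. Col1a1 (ENSMUSG00000001506), the alpha 1 chain, lies on chromosome 11 of GRCm38, plus strand, from 94936224 to 94953042. Its level, in fragments scaled for transcript length and library depth (FPKM), was 784, 744, 741 and 777 in the libraries labelled GFP and 682, 668, 681 and 738 in those labelled OEIRF7. The groups were separate by a narrow gap, with replicate 4 of the libraries labelled OEIRF7 just below the lowest library labelled GFP. The log2 fold change was -0.16 (SE 0.033, edgeR adjusted p = 0.00052), a level that fell by 10.8%. Col1a2 (ENSMUSG00000029661), the alpha 2 chain that joins pairs of alpha 1 chains, lies on the plus strand of chromosome 6 from 4504814 to 4541544. It stood at 699, 678, 693 and 682 FPKM in the libraries labelled GFP and at 662, 657, 685 and 700.04 FPKM in those labelled OEIRF7. The groups overlapped, and the library with the highest Col1a2 was replicate 4 labelled OEIRF7. The log2 fold change was -0.05 (SE 0.027, 95% confidence interval -0.11 to 0.0044, edgeR adjusted p = 0.10), and the exact permutation test gave p = 0.114. Without replicate 4 labelled OEIRF7 it was -0.07 and called, with an edgeR adjusted p of 0.028.

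The sequence around the start codon is shown for the chains of type I collagen because their mRNAs are known to share a stem-loop there that the RNA-binding protein LARP6 holds, with Col5a2 for comparison. Each line gives 30 bases of the transcript in GENCODE M21, 15 of them before the start codon, which is in capitals, and all lie in exon 1.
Col1a1: gtctagggtctagacATGttcagctttgtg
Col1a2: gtctaagtggtagacATGctcagctttgtg
Col5a2: gtctcatatttagacATGatggcaaactgg
They come from GRCm38 chr11:94936354-94936383 (plus strand), chr6:4505825-4505854 (plus strand) and chr1:45502900-45502929 (minus strand). Of the 30 bases of Col1a1, Col1a2 shared 25, start codon included, while Col5a2 shared 15, Col5a3 shared 9 and Col5a1 shared 8. Values for Col3a1 and the remaining members are not given here, so the shared bases are not shown to be particular to type I collagen. Larp6 itself had a log2 fold change of -0.02 (SE 0.181, edgeR adjusted p = 0.94).

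Type III collagen had a larger fold change than either chain of type I. Col3a1 (ENSMUSG00000026043) lies on the plus strand of chromosome 1 from 45311538 to 45349706. Its level was 310, 349, 283 and 275 FPKM in the libraries labelled GFP and 213, 211, 205 and 223 FPKM in those labelled OEIRF7. The groups did not overlap, and the libraries labelled GFP were spread more widely (SD 33.4) than those labelled OEIRF7 (SD 7.21). The log2 fold change was -0.53 (SE 0.052, edgeR adjusted p = 6.5e-07), or a level that fell by 30.6%.

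Both main type V chains fell. Col5a1 (ENSMUSG00000026837), the alpha 1 chain found in most type V molecules, lies on the plus strand of chromosome 2 from 27886425 to 28039514. Its level was 206, 197, 202 and 218 FPKM in the libraries labelled GFP and 143, 145, 134 and 162 FPKM in those labelled OEIRF7. The log2 fold change was -0.55 (SE 0.051, edgeR adjusted p = 3.2e-07), with no overlap between groups. Col5a2 (ENSMUSG00000026042), the alpha 2 chain, lies on the minus strand of chromosome 1 from 45374321 to 45503282, next to Col3a1. It was the most abundant member in the libraries labelled GFP, with 796, 777, 786 and 802 FPKM, and reached 575, 577, 534 and 577 FPKM in those labelled OEIRF7. Replicate 3 was the low one of these, and every library labelled OEIRF7 lay below every library labelled GFP. The log2 fold change was -0.51 (SE 0.026, edgeR adjusted p = 7e-10).

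Col11a1 (ENSMUSG00000027966), the alpha 1 chain of type XI collagen, which can also join type V chains, lies on the plus strand of chromosome 3 from 114030540 to 114220718. Its level was 118, 114, 109 and 110 FPKM in the libraries labelled GFP and 70.5, 75.2, 69.5 and 69.7 FPKM in those labelled OEIRF7. Of the 6 abundant members its fall was the largest, with a log2 fold change of -0.73 (SE 0.034, edgeR adjusted p = 2.3e-10), or a level that fell by 39.6%. Col11a2, the other fibrillar chain of type XI, is not among the 10 members and stood at 0.64 to 0.98 FPKM. Its log2 fold change of -0.31 (SE 0.118, edgeR adjusted p = 0.034) was not called in 8 of 16 alternative analyses.

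Col5a3 (ENSMUSG00000004098), the alpha 3 chain of type V collagen, moved opposite to the other type V chains. It lies on the minus strand of chromosome 9 from 20770050 to 20815067. Reads assigned to it numbered 484, 371, 479 and 476 in the libraries labelled GFP and 1475, 1722, 1346 and 1515 in those labelled OEIRF7. In FPKM the levels were 2.92, 2.41, 3.15 and 2.93 against 9.47, 9.82, 8.65 and 10.12. The lowest library labelled OEIRF7 was well above the highest library labelled GFP, and the change was 3.27-fold (log2 fold change 1.71, SE 0.072, edgeR adjusted p = 9.9e-11). Of all tested genes, 1.90% had a higher log2 fold change.

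Col27a1 (ENSMUSG00000045672), a chain made mainly in cartilage and developing tissue, also rose. It lies on the plus strand of chromosome 4 from 63214004 to 63334991 and holds the miRNA gene Mir455. Reads assigned to it numbered 262, 182, 210 and 235 in the libraries labelled GFP and 424, 471, 362 and 345 in those labelled OEIRF7. The change was 1.76-fold (log2 fold change 0.82, SE 0.094, edgeR adjusted p = 3e-06), and the groups did not overlap. Col24a1 (ENSMUSG00000028197), its nearest relative, lies on the plus strand of chromosome 3 from 145292472 to 145552011 and was barely counted, with 3, 1, 1 and 1 counts in the libraries labelled GFP and 8, 3, 11 and 4 in those labelled OEIRF7. The ratio of pooled counts, 6 and 26, each divided by the pooled library totals was 4.32, with a 95% counting interval of 1.74 to 12.8 that covers counting error only. The groups touched at 3 counts and overlapped in CPM, with 0.112 in replicate 1 labelled GFP and 0.1034 in replicate 2 labelled OEIRF7. Col24a1 did not pass the filter, and the exact permutation test of log2 CPM gave p = 0.057. With no filter, a value added after its counts were seen, edgeR gave a log2 fold change of 2.01 and an adjusted p of 0.037. Its gene body overlaps the antisense gene 9530034A14Rik, and whether counting used strand is not stated.

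Col2a1 (ENSMUSG00000022483), the chain of cartilage collagen, lies on the minus strand of chromosome 15 from 97975602 to 98004695 and was near the lower limit of measurement. Reads assigned to it numbered 48, 48, 58 and 57 in the libraries labelled GFP and 34, 16, 13 and 30 in those labelled OEIRF7. All 4 libraries labelled OEIRF7 were below the lowest library labelled GFP, and they split into a pair at 30 and 34 counts and a pair at 13 and 16. The log2 fold change was -1.20 (SE 0.285, 95% confidence interval -1.82 to -0.60, edgeR adjusted p = 0.0021). Most tested genes of a chondrocyte list moved with Col2a1, while Col27a1, which is not in that list, rose. Of 10 chondrocyte markers 8 were tested and 7 fell, with a median log2 fold change of -1.35. Of all tested genes, 29.9% were called lower. Among the markers that fell were Sox9 (-0.76), the regulator that switches on Col2a1 and Col11a1, Acan (-1.75), the cartilage proteoglycan aggrecan, and Comp (-1.20), a cartilage matrix protein. The exception, Col9a3, had a log2 fold change of 0.16 (edgeR adjusted p = 0.61). The summed level of the list was 94.9 to 98.9 CPM in the libraries labelled GFP and 50.4 to 62.0 CPM in those labelled OEIRF7. Most of it was Sox9, which fibroblasts also express. In the libraries labelled GFP, Acan and Comp stood at only 3.825 and 4.756 mean CPM, and Matn1 and Col9a1 had 2 and 9 counts in all. The part of these markers in the falls of Col2a1 and Col11a1 was not tested.

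**Figure D2:**
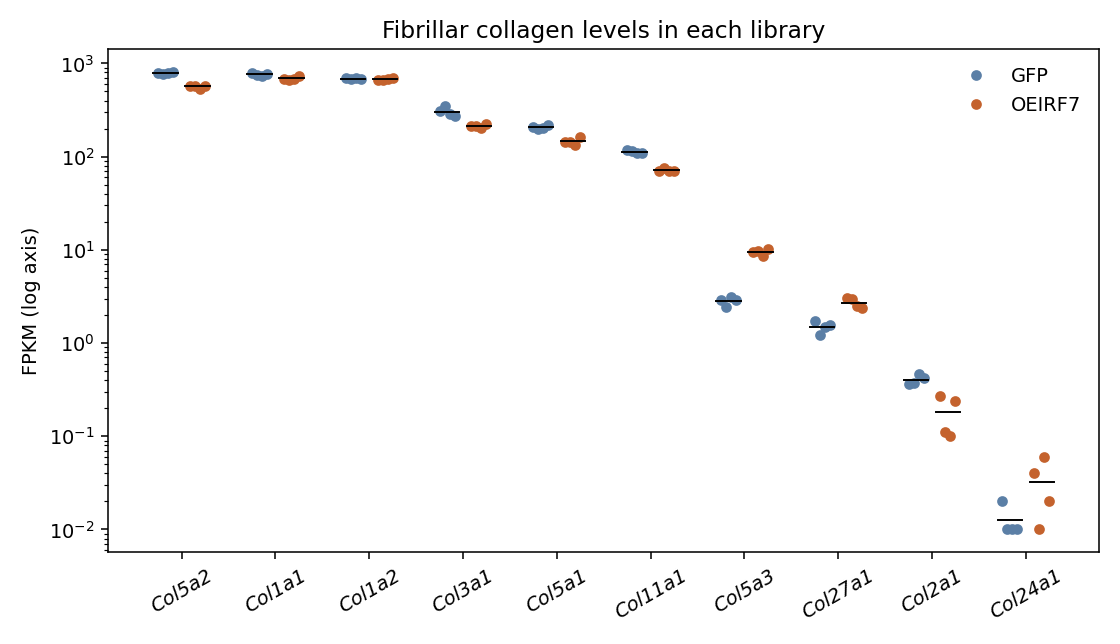
FPKM of each fibrillar collagen (vertical axis, log scale) in each of the 4 libraries labelled GFP and the 4 labelled OEIRF7, one point per library, with a bar at the group mean. The 6 abundant genes stand at 69.5 FPKM or more in every library and the 4 others at 10.12 or less, and only Col1a2 and Col24a1 show overlapping groups in FPKM.

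The order of the levels was nearly the same in both groups. In the libraries labelled GFP the mean FPKM ran from Col5a2 (790.4 ± 11.1, SD, n = 4) over Col1a1 (762 ± 21.9), Col1a2 (688 ± 10.1), Col3a1 (305 ± 33.4), Col5a1 (206 ± 9.04) and Col11a1 (113 ± 4.12) to Col5a3 (2.85 ± 0.314), Col27a1 (1.5 ± 0.210), Col2a1 (0.403 ± 0.046) and Col24a1 (0.0125 ± 0.005). In the libraries labelled OEIRF7 Col5a2 (566 ± 21.3) was the third, behind Col1a1 (693 ± 31.0) and Col1a2 (676 ± 20.1), and the rest kept their places. The ranges of Col5a2 and Col1a1 overlapped in the libraries labelled GFP, although Col5a2 was the higher in 4 of 4. The ranges of Col1a1 and Col1a2 overlapped in the libraries labelled OEIRF7, with Col1a1 the higher in 3 of 4. All other neighbours in the order were separate within each group. FPKM depends on the transcript length assumed: the length implied by counts and FPKM was 4962 bases for Col5a1, whose longest coding transcript has 8406, and 5929 for Col1a1, whose longest has 5930, so the distance of Col5a1 from its neighbours depends on the length used.

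The fibrillar collagens took a smaller part of the libraries labelled OEIRF7. Their summed counts were 1.73%, 1.68%, 1.66% and 1.70% of the library in the group labelled GFP and 1.38%, 1.37%, 1.35% and 1.46% in the group labelled OEIRF7. No library of one group reached the other (exact permutation test, two-sided, p = 0.029, adjusted p = 0.036 over 5 share measures), and 0.029 is the smallest p that 4 against 4 allows. Col1a1 and Col1a2 together went from 0.819% ± 0.016 to 0.771% ± 0.028 (SD, n = 4; exact permutation p = 0.086, adjusted p = 0.086), which did not pass the test. The 8 other members together fell from 0.875% ± 0.015 to 0.620% ± 0.025 (SD, n = 4; exact permutation p = 0.029, adjusted p = 0.036). Within the summed FPKM of the family, Col1a2 went from 23.99% ± 0.416 to 28.4% ± 0.716 and Col1a1 from 26.6% ± 0.505 to 29.1% ± 0.535, while Col5a2 went from 27.6% ± 0.423 to 23.8% ± 0.798 and Col11a1 from 3.93% ± 0.099 to 2.998% ± 0.162. For each of these 4 chains the ranges of the 2 groups were separate. These shares sum to the whole family, so a rise in one chain's share lowers the others', and they were not tested.

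**Figure D3:**
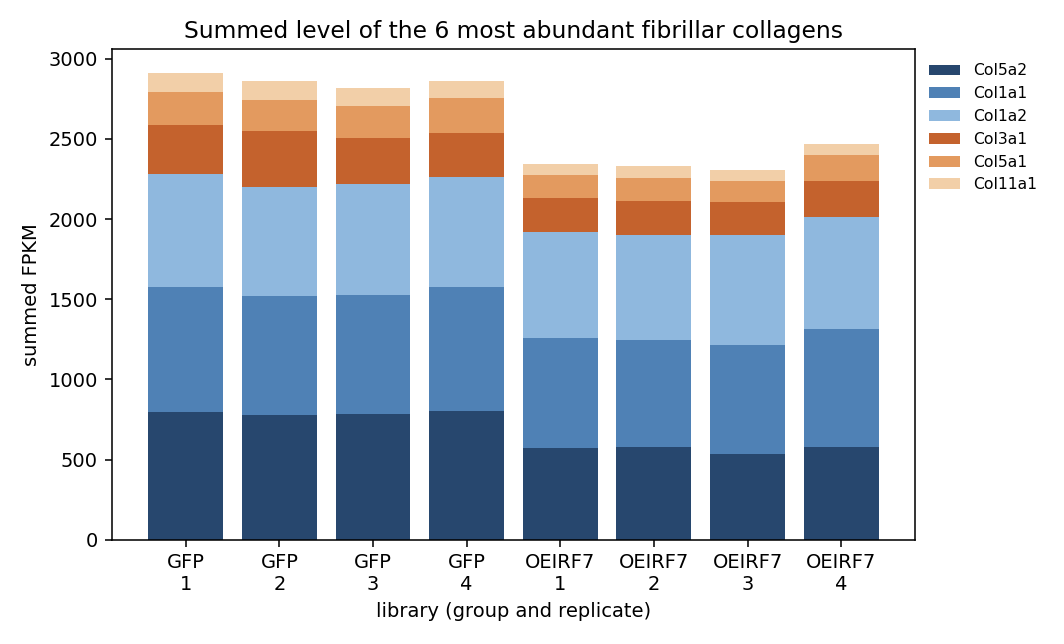
Summed FPKM of the 6 most abundant fibrillar collagens in each library (bars from 0, coloured by chain; 4 libraries labelled GFP at left, 4 labelled OEIRF7 at right). The bars are lower in every library labelled OEIRF7, with Col5a2, Col3a1, Col5a1 and Col11a1 narrower and Col1a2 close to its height in the libraries labelled GFP.

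Ratios of chains within a library do not depend on its depth. Of 7 ratios compared, 4 had groups that did not overlap, each with the smallest possible exact permutation p of 0.029 and an adjusted p of 0.05, which lies at the threshold and not below it. Col3a1 per Col1a1, the balance of type III to type I collagen, was 0.396, 0.470, 0.382 and 0.354 in the libraries labelled GFP and 0.313, 0.315, 0.301 and 0.302 in those labelled OEIRF7. Col5a1 per Col1a1 was 0.263 to 0.281 against 0.197 to 0.220. Col1a1 per Col1a2 was 1.07 to 1.14 against 0.995 to 1.05. The widest difference was in the type V chains, where Col5a3 per Col5a1 was 0.0142, 0.0122, 0.0156 and 0.0134 against 0.0664, 0.0679, 0.0644 and 0.0623, or 4.72 times higher in the libraries labelled OEIRF7. Col5a2 per Col5a1 was 3.85 ± 0.116 in the libraries labelled GFP and 3.89 ± 0.225 in those labelled OEIRF7 (SD, n = 4; exact permutation p = 0.743, adjusted p = 0.743), a difference within the spread. Col11a1 per Col5a1 was 0.548 ± 0.034 and 0.490 ± 0.042 (SD, n = 4; exact permutation p = 0.086, adjusted p = 0.12), and its ratio of counts gave p = 0.029. Without replicate 4 labelled OEIRF7 its log2 difference went from -0.16 to -0.10 (exact permutation p = 0.171). The implied lengths of Col3a1 and Col11a1 ranged from 5129 to 5564 and from 6919 to 7423 bases between libraries, which moves their FPKM apart from their counts. Col27a1 per Col24a1 rests on Col24a1 levels of 0.01 to 0.06 FPKM and was not separated (exact permutation p = 0.6, adjusted p = 0.7).

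**Figure D4:**
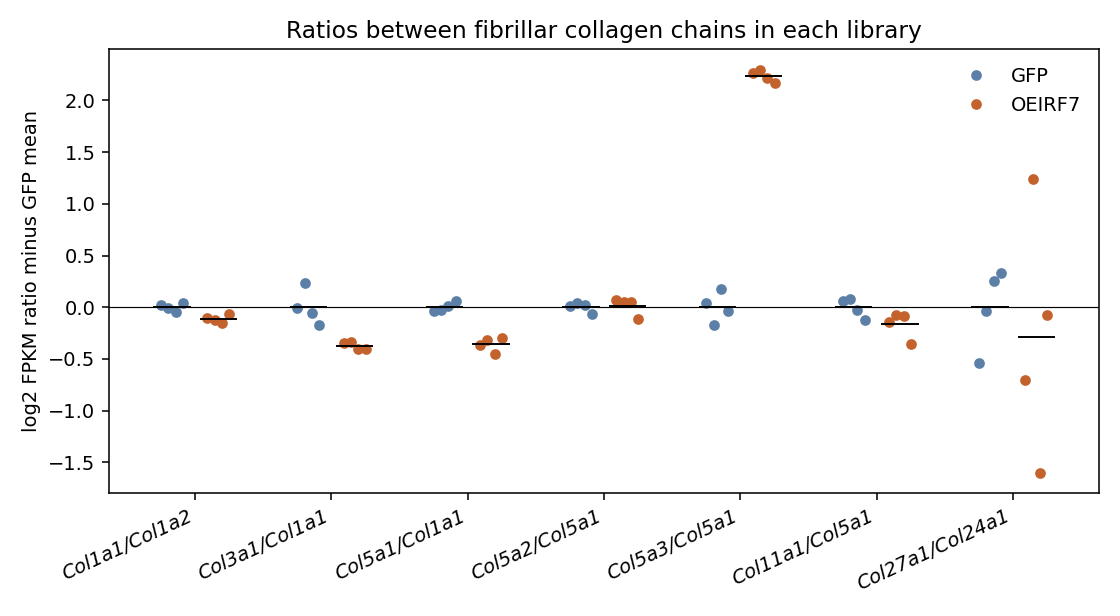
Log2 ratio of the FPKM of pairs of fibrillar collagens in each library, minus the mean of the libraries labelled GFP (vertical axis; one point per library, bars at group means, 4 libraries per group). Col5a3/Col5a1 stands 2.24 above, Col3a1/Col1a1 and Col5a1/Col1a1 0.37 and 0.36 below, and Col5a2/Col5a1 overlaps.

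The promoter sequences are shown for a chain that was not called (Col1a2), 2 that fell (Col3a1 and Col11a1) and one that rose (Col5a3), so that their letters can be read beside their different changes. Each is the 200 bases before the transcription start from RefSeq on GRCm38.p6, read on the strand of the gene, with a CCAAT box (on either strand) or the letters TATAAA in capitals.
Col1a2: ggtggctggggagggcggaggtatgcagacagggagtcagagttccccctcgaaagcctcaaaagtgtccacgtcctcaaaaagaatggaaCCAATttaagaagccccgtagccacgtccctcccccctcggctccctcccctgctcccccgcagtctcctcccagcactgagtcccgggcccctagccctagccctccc
Col3a1: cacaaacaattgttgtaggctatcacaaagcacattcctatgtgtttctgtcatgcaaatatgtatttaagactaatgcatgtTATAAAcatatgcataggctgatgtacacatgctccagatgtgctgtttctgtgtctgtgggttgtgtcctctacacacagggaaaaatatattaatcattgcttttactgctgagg
Col11a1: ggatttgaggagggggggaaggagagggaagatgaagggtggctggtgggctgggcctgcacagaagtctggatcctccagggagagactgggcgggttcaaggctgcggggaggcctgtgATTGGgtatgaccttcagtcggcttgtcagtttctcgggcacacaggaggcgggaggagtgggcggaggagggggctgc
Col5a3: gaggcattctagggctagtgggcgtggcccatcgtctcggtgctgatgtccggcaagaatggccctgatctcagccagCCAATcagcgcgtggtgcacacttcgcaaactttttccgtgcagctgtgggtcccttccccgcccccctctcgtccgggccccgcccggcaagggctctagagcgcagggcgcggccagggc
They lie at chr6:4505418-4505617 (plus strand), chr1:45311338-45311537 (plus strand), chr3:114030340-114030539 (plus strand) and chr9:20815068-20815267 (minus strand).

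RefSeq promoters were matched for 7 of the 10 members, the others being Col1a1, Col2a1 and Col5a2. Motifs were searched on both strands from 250 bases before to 50 bases after the start, and no match overlapped a match to another motif. The CCAAT box, to which NF-Y binds, was in 3 of 7 members (Col1a2, Col5a3 and Col11a1) and in 37.4% of 32817 promoters. The letters TATAAA were in 1 (Col3a1), at positions -117 to -112 counted with the first transcribed base as 0, and in 13.6% of all promoters. The GC box GGGCGG, a site for Sp1, was in 5 members and in 35.6%. The core letters of the element that interferon regulatory factors bind, GAAANNGAA, were in Col27a1 alone, at positions -218 to -210 and -2 to 6 counted with the first transcribed base as 0, and in 8.55% of all promoters. The CCAAT box occurred in Col11a1, which fell, in Col5a3, which rose, and in Col1a2, which was not called. Whether any of these motifs relates to the changes was not tested.

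The other genes that make and hold a collagen fibril were followed from secretion to breakdown, in lists taken by their roles. Of 95 genes, 89 were tested, of which 40 fell, 25 rose and 24 were not called, with a median log2 fold change of -0.09. Of all tested genes 29.9% were called lower and 29.0% higher, and the counts of each list are to be read beside these shares. Of 18 chaperones and hydroxylases of procollagen, 5 fell and 9 rose. Serpinh1, the collagen chaperone HSP47, fell (log2 fold change -0.40, SE 0.034, edgeR adjusted p = 1.4e-07), as did the lysyl hydroxylase Plod2 (-0.36), whereas the lysyl hydroxylase Plod1 (0.50) and the prolyl hydroxylase subunit P4ha2 (0.34) rose. Of 7 export genes 2 fell and 3 rose, among them Sec23a (0.41), of the vesicle coat that carries procollagen, and Mia3 (0.24), the receptor that loads it. The count of 2 export genes that fell went to 1 in 10 of 16 alternatives. Of the pair, Sec24d had an edgeR adjusted p of 0.047 and Creb3l1 one of 0.0011. Creb3l1 is also counted in the list of transcription factors below. Of 7 tested genes for propeptide removal 2 fell and 2 rose. Pcolce (-0.42), an enhancer of C-proteinase, and Adamts2 (-0.40), the N-proteinase, fell, while Bmp1 (0.13), the C-proteinase, and Pcolce2 (0.43) rose. Of the 5 lysyl oxidases that cross-link fibrils, Loxl3 (-0.61) and Loxl2 (-0.22) fell, and Lox (0.11) and Loxl4 (0.40) rose.

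Among the molecules of the fibril surface 12 of 15 tested genes fell and 1 rose, beside 29.9% and 29.0% of all tested genes. Fmod, a small proteoglycan that binds fibrils, went from 24.4 to 5.66 mean FPKM (log2 fold change -2.14, SE 0.108, edgeR adjusted p = 5.4e-10). Col6a1 (-1.52), a chain of beaded microfibrils, and Thbs2 (-1.44), a matricellular protein, also fell, and Tnxb (1.55), which links fibrils, rose. Col6a2 and Col6a3, partners of Col6a1, fell by 0.25 and 0.20 on the log2 scale. Of 8 tested genes of collagen breakdown 2 fell and 4 rose. Mmp13, a collagenase that cuts fibrillar collagen, had 178 counts in all libraries labelled GFP and 6312 in those labelled OEIRF7 (log2 fold change 5.11, SE 0.198, edgeR adjusted p = 4.4e-11). Mmp9, a gelatinase, had 19 and 1182 counts (log2 fold change 5.88, SE 0.275), and Ctsk (0.64) and the membrane collagenase Mmp14 (0.24) rose as well. The 2 breakdown genes that fell, Mmp2 and Mrc2, named after their values were seen, had log2 fold changes of -0.10 and -0.12. Neither was called with scaling by library size alone, in either limma fit or without replicate 3 labelled OEIRF7, and 1 of them was called without replicate 1 or 2 labelled GFP. Of 8 tested collagen receptors 4 fell and 2 rose. The integrin chain Itga2 rose (2.75), and the chains Itga1 (-1.28) and Itga11 (-0.94) and the receptor kinase Ddr1 (-0.71) fell.

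**Figure D5:**
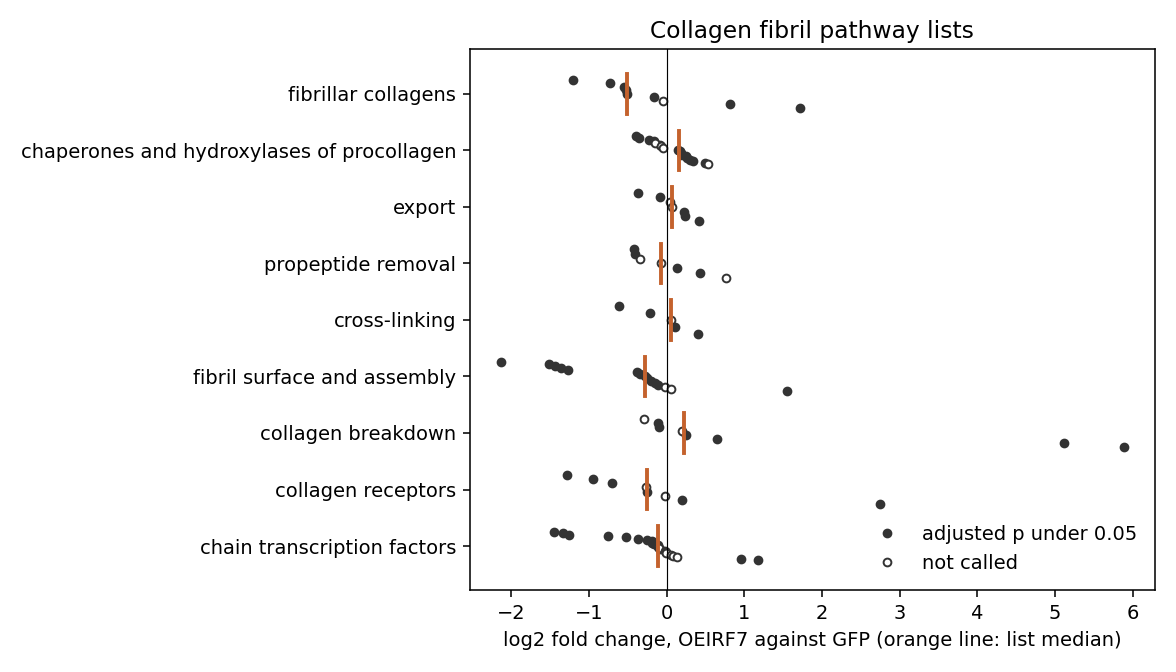
Log2 fold change (horizontal axis, libraries labelled OEIRF7 against GFP, 4 per group) of each tested gene in the fibrillar collagens and in 8 lists of the collagen pathway; filled points were called, open points were not, and the orange line is the median of the list. Of the 9 lists drawn the fibrillar collagens have the lowest median (-0.51), the fibril surface list stands at -0.28, and Mmp13 and Mmp9 lie past 5.

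Of 22 tested transcription factors and related regulators known for collagen chains, 12 fell and 2 rose, beside 29.9% and 29.0% of all tested genes. Scx (scleraxis, -1.46), which drives type I collagen in tendon and heart, Tcf21 (-1.33), a marker of cardiac fibroblasts, and Sox5 (-1.26), a partner of Sox9, fell, and Cebpb (1.17) and Egr1 (0.96) rose. Among the regulators that carry the TGF-β signal, Smad3 had a log2 fold change of -0.19 (edgeR adjusted p = 0.013). Smad2 had one of -0.09 (edgeR adjusted p = 0.049), and Smad4 one of 0.08 (edgeR adjusted p = 0.12). Of the NF-Y subunits Nfya (-0.17) and Nfyb (-0.25) fell, and Nfyc (0.06, edgeR adjusted p = 0.45) was not called.

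Some markers of other cells that a fibroblast culture can hold were also called. Of all tested genes 29.9% were called lower and 29.0% higher, 58.9% in all, so a called marker by itself was common. Of 7 macrophage markers 4 rose and 1 fell, with a summed level of 92.6 to 107 CPM in the libraries labelled GFP and 128 to 138 CPM in those labelled OEIRF7, and Ptprc (CD45) stood at 5.27 and 4.96 mean CPM. Of 6 epicardial markers 2 rose and 2 fell (151 to 159 against 105 to 119 CPM), and of 5 tested mural markers 2 rose and 2 fell (68.9 to 76.0 against 79.0 to 98.8 CPM). Of 7 endothelial markers 3 rose and 1 fell (217 to 231 against 221 to 250 CPM). Of the 8 fibroblast markers 5 fell and 2 rose, the latter being Pdgfra (log2 fold change 0.25) and Vim (0.22). Of those that fell, Tcf21, Postn, Lum and Ddr2 also stand in lists above. No marker of these lists was at 0 in every library, and their part in the collagen differences was not tested.

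The genes whose profile over the 8 libraries was most like that of Col1a1 were Ccdc97, Sec24c, Srebf1, Abhd4 and Tm9sf4. The measure was the root mean squared distance between log2 FPKM profiles, each centred on its own mean, over 6125 genes with a mean above 10 FPKM, and it was 0.022 for Ccdc97 and 0.029 for Tm9sf4. Their log2 fold changes lay between -0.17 and -0.13, beside -0.16 for Col1a1, and no other fibrillar collagen was among them.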

How the data were processed

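Per the methods of the study, the authors trimmed paired reads, mapped them with HISAT2 to GRCm38, and counted reads per gene with HTSeq-count. They deposited these raw counts and FPKM from Cufflinks, normalized for length and depth, for all 8 libraries. The strand setting of the counting and tool versions are not given in the sources used here. The authors' own fold changes and p-values in the table were not used. Symbols of 121 genes that held GFP in place of other letters were restored by Ensembl identifier.

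The counts were fitted with edgeR 4.0.16 under R 4.3.3 (filterByExpr, TMM, glmQLFit, glmQLFTest, no covariates, Benjamini-Hochberg over 13533 genes). Standard errors were taken from the F statistic and are approximate. Single values per library were compared by exact two-sided permutation tests over 70 splits. Alternatives were DESeq2 1.42.0, limma 3.58.1 on FPKM above a mean of 0.1 with 1 or 0.1 added before taking log2, other scalings and filters, a replicate block and leaving out each library. On simulated data with 200 genes changed by 2-fold among 13450, edgeR recovered 91% with 5.70% false calls. The replicate block and DESeq2 gave 8.5% and 9.5% false calls there. In the data 58.9% of genes were called and most members changed by less than 2-fold, so these rates do not carry over to the calls here. The members and lists were chosen with earlier results of these data known. Named genes of a pathway list were the called members with the largest changes and a mean above 1 CPM, at most 4 a list. Col6a2, Col6a3, Sec24d, Smad2, Smad3, Smad4, the NF-Y subunits, Larp6, Egr1, Mmp2, Mrc2, Postn, Lum, Ddr2, Vim, Pdgfra, Pdgfrb, Thy1, Myh6, Tnnt2, Ptprc and the chondrocyte markers given singly were named after their values were seen.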

Additional observations from a re-analysis of the deposited data

Results flagged for a closer look

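In 36 groups of 4 libraries, 3 had a library far from the other 3 by Dixon's test, which chance gives in about 1 of 20 groups. Col5a2 stood at 11.79 log2 CPM in replicate 3 labelled OEIRF7, against 11.88 to 11.89 in the other 3 libraries of that group (gap over range 0.867). The log2 ratio of Col5a2 to Col5a1 was 1.83 in replicate 4 labelled OEIRF7, against 1.99 to 2.01 in the others (0.888). The share of all FPKM held by the fibrillar collagens was 0.594% in replicate 4 labelled OEIRF7, against 0.553% to 0.560% in the others (0.836).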

How the results depend on the processing

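The 8 members called kept their direction and their call in each of 16 alternatives. Col1a2, not called in the main analysis, had log2 fold changes from -0.072 to -0.039 when single libraries were left out and was called without replicate 4 labelled OEIRF7. Under limma on log2(FPKM + 1) and on log2(FPKM + 0.1), 0 members were lower past a log2 fold change of 1, since the added constant shrinks Col2a1 to -0.25 and -0.89, and with no filter on low counts 2 members were higher past 1, because Col24a1 is then tested. The difference between groups in the log2 ratio Col5a2/Col5a1, 0.015 in the main analysis, ran from -0.0067 to 0.057 when single libraries were left out. The log2 difference of Col11a1/Col5a1 was -0.18 as a ratio of counts (exact permutation p = 0.029) and ran from -0.20 to -0.10 without single libraries, -0.10 being without replicate 4 labelled OEIRF7, and that of Col27a1/Col24a1 turned to 0.59 with 0.1 FPKM added (exact permutation p = 0.029) and ran from -0.80 to 0.15 without single libraries, 0.15 being without replicate 3 labelled OEIRF7. The cause was not tested. Among the lists, genes of collagen breakdown called lower were 0 with library size alone, in both limma fits and without replicate 3 labelled OEIRF7, and 1 without replicate 1 or 2 labelled GFP. Fibril surface genes called higher were 2 in both limma fits and without replicate 3 labelled OEIRF7, and cross-linking genes called higher were 1 with DESeq2. Export genes called lower were 1 in 10 alternatives, among them those without replicate 1, 3 or 4 labelled GFP and without replicate 1, 2 or 4 labelled OEIRF7. Col11a2 lost its call in 8 alternatives (edgeR, DESeq2 or limma adjusted p up to 0.11).

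Whether libraries with the same number pair was not settled. Their deviations from the group means correlated by 0.0792, 0.0953, 0.138 and 0.104, and libraries with different numbers were not compared in this way. With the replicate number as a block 8211 genes were called, against 7969, and no member's call changed (Col1a2 -0.0538, Col2a1 -1.23, Col5a3 1.71). For ratios under the same block, an exact sign test of 4 pairs cannot go below p = 0.125, which it gave for Col1a1/Col1a2 (-0.11), Col3a1/Col1a1 (-0.37), Col5a1/Col1a1 (-0.36), Col5a3/Col5a1 (2.24) and Col11a1/Col5a1 (-0.16). Depth limits Col24a1, with 1 to 11 counts, and Col2a1, with 13 to 58.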
